A study of Nicotiana with 12 samples.

Results

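Leaves of a transgenic tobacco line under long water deficit were set against unstressed wild-type leaves. The comparison takes 6 of the 12 arrays of the study: 3 of stressed PSARK::IPT plants, called stressed IPT here, and 3 of watered wild-type (WT) plants. Stressed IPT plants received 300 mL of water per pot and day and watered WT plants 1000 mL, for 45 days in a greenhouse, and leaves were taken at an age of about 10 weeks. The other arrays are 3 of stressed WT and 3 of watered IPT plants of the same age. They were used to split the difference into a genotype part and a water part, and to set it beside what the deficit did in WT. All plants were transplanted at 3 weeks, and each array held RNA of 1 biological replicate. IPT plants differ from WT by the transgene in both water regimes, and the transgene is driven by the SARK promoter, so its activity depends on the state of the leaf. How many independent transgenic events stand behind the IPT samples is not given in the sources used here.

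Isopentenyltransferase (IPT) is the enzyme of the first step of cytokinin synthesis in plants. Cytokinins are hormones that keep leaves green and delay senescence, and SARK is a receptor-like kinase whose gene is switched on as leaves mature and senesce, so the construct was made to raise cytokinin in ageing or stressed leaves. Water deficit in leaves is known for the hormone abscisic acid, for dehydrins and other protective proteins, and for a loss of photosynthesis. Setting the stressed transgenic leaf against the watered WT leaf asks which of its transcripts stand where they do without stress and without the transgene.

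The RNA was tobacco and the probes were those of a tomato array, so each probe set was set against itself on other arrays, never against another probe set. Of 10101 probe sets tested, 909 had a symbol in the tomato annotation, and symbols beginning with LOC have no further name in the annotation used here. Values are log2 levels deposited after RMA (robust multi-array average) processing, and array medians over the tested probe sets lay between 3.38 and 3.45. Arrays of stressed IPT correlated with each other at r between 0.989 and 0.990 over all probe sets, and with the watered WT arrays at 0.965 to 0.967. No probe set in the annotation used here is named for the transgene, so the genotype labels were not checked with it. As a check of the tissue, the photosystem gene PSBO lay between 12.94 and 13.01 on the stressed IPT arrays and between 12.47 and 12.60 on the watered WT arrays, near the top of the scale. The poly-A controls, bacterial transcripts added before labelling, averaged 8.58 ± 0.09 in stressed IPT and 10.1 ± 0.05 in watered WT (log2, SD, n = 3 each). Their level lay between 7.57 and 8.28 on the stressed WT arrays and between 8.20 and 8.47 on the watered IPT arrays. The watered WT arrays thus stood above all others in this level, which was not fitted as a covariate. The 3' probe sets of the poly-A controls minus their 5' ones, a gap that grows when labelling reaches less far along a transcript, averaged 3.42 ± 0.14 in stressed IPT and 2.24 ± 0.07 in watered WT. For both, the exact permutation test (two-sided) gave p = 0.1, which no split of 3 and 3 arrays can undercut. Among tomato transcripts the 3' minus 5' gap differed between stressed IPT and watered WT by 0.84 for GAPDH and 0.85 for actin. It differed by -0.02 for EF1a and -0.26 for ubiquitin. For GAPDH and ubiquitin the groups did not overlap, and the exact permutation test gave its lowest possible p = 0.1. For actin and EF1a the groups overlapped, and the exact permutation test gave p = 0.2 and p = 0.9. The part of labelling in the results was not tested beyond a fit with the poly-A 3' minus 5' difference as a covariate, whose counts are given below beside each gene group in which they differ.

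Most probe sets gave values in stressed IPT leaves close to those in watered WT leaves. Dim probe sets were not left out, and their differences may be understated, so this likeness is one of array values. The 95% interval of the difference lay wholly within 2-fold for 9298 probe sets (92.1%), wholly beyond 2-fold for 148, and across that limit for 655. With only the probe sets above the median mean tested, about a halved number, it lay within 2-fold for 4338, a smaller share of those tested. In stressed WT leaves, set against the same watered WT arrays, the interval lay within 2-fold for 9608 probe sets (95.1%). The median size of the log2 difference was 0.186 in stressed IPT and 0.17 in stressed WT, and the size exceeded by 10% of probe sets was 0.592 in stressed IPT and 0.484 in stressed WT. By these measures stressed IPT stood no nearer to watered WT than stressed WT did. Both comparisons share the watered WT arrays, and the difference between them was not tested.

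The departures from watered WT were of both directions. In all, 1812 of 10101 probe sets passed (17.9%, limma, Benjamini-Hochberg adjusted p below 0.05), 961 higher (9.51%) and 851 lower (8.42%) in stressed IPT, and the median log2 difference of all probe sets was 0.025. Of those that passed, 139 were at least 2-fold higher and 182 at least 2-fold lower, while 1057 passed although their interval lay within 2-fold. Among the probe sets with a symbol, 190 of 909 passed (20.9%). The arrays of both groups did not overlap for 3423 probe sets (33.9%). Where genes below are said not to overlap, most were named because they passed, so this describes them and adds no support. With the poly-A covariate 891 passed, 510 higher and 381 lower, of which 785 were among the 1812, and standard errors of the 1812 grew by a median of 1.35 times.

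Since the groups differ in genotype and in water supply, each difference is the sum of a genotype part (IPT minus WT over both water regimes) and a water part (stressed minus watered over both genotypes). The genotype part passed for 2275 of 10101 probe sets (22.5%) and the water part for 1180 (11.7%). The water part averages the stress effects of both genotypes. Stressed against watered leaves passed for 137 probe sets within IPT and for 1142 within WT. With the poly-A covariate the count within WT was 59, and no count with it was made within IPT. The poly-A 3' minus 5' gap lay between 2.21 and 3.11 on the watered IPT arrays and between 3.34 and 3.58 on the stressed IPT arrays. For the WT arrays it is given below, and its part in these 2 counts was not tested further. IPT against WT passed for 1396 in watered leaves and for 1682 in stressed ones. Of the 1812 probe sets that separated stressed IPT from watered WT, 1285 also passed for genotype, 624 for water, 296 of these for both, and 199 for neither. The genotype part was the larger in 1268 and the water part in 544, and in 454 the parts had opposite signs. Among the 321 that changed at least 2-fold, genotype was the larger part in 255 and water in 66. The parts add up to the difference by which these probe sets were chosen, on the same arrays. These counts therefore describe the chosen probe sets and test neither part. With the poly-A covariate the water part passed for 37 probe sets, and without watered IPT replicate 2 for 769, so counts of the water part depend on those choices.

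The genes that moved most in stressed WT leaves show where the stressed IPT leaf stood near watered WT and where it did not. In stressed WT 1142 probe sets passed against watered WT (11.3%), 748 without stressed WT replicate 2 and 59 with the poly-A covariate. The poly-A 3' minus 5' gap lay between 3.70 and 5.43 on the stressed WT arrays and between 2.18 and 2.32 on the watered WT arrays, and its part in these changes was not tested further. The 6 largest named rises and 6 largest named falls were followed. TBG3, a beta-galactosidase of the cell wall, stood at 5.56, 5.53 and 5.54 in stressed IPT, against 5.32, 5.43 and 5.06 in watered WT, while stressed WT had 8.45, 8.41 and 8.58. The stressed IPT values lay just above those of watered WT and far below those of stressed WT. Its difference in stressed IPT was log2 0.27 (95% interval 0.02 to 0.52, limma adjusted p = 0.128), beside 3.21 in stressed WT. The bZIP transcription factor gene abz1 stood at 3.75, 4.12 and 3.76 in stressed IPT, against 4.10, 4.14 and 3.93 in watered WT. These groups overlapped, and the log2 difference was -0.18 (interval -0.51 to 0.14), beside 1.36 in stressed WT. LOC544312 likewise overlapped with watered WT (log2 -0.09, interval -0.35 to 0.17), beside 1.22 in stressed WT.

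Genes that fell in stressed WT did not stand in 1 place in stressed IPT. The carbonic anhydrase gene ca2, of the enzyme that interconverts CO2 and bicarbonate in leaves, stood at 11.81, 11.77 and 11.78 in stressed IPT, against 11.45, 11.47 and 11.49 in watered WT, while stressed WT had 9.11, 8.28 and 9.16. The stressed IPT arrays all lay above watered WT, by log2 0.32 (interval -0.06 to 0.69, adjusted p = 0.253), beside -2.62 in stressed WT. This value passed without stressed WT replicate 2 (0.32, adjusted p = 0.0415) and with the poly-A covariate (0.86, adjusted p = 0.00214). Of the other ca2 probe sets, a bright one at 0.43 and one at -0.13 did not pass, and one passed at 0.70 with all its arrays below the array medians. In stressed WT the bright one was at -2.58, and the dim ones, at -0.16 and -0.37, did not pass. LOC544267 overlapped with watered WT (log2 -0.22, interval -0.74 to 0.30), beside -1.49 in stressed WT. Fad7, a plastid desaturase that makes trienoic fatty acids of chloroplast membranes, had 7.49, 7.54 and 7.46 in stressed IPT, against 6.59, 6.69 and 6.54 in watered WT. It was thus 1.85-fold higher in stressed IPT (log2 0.89, SE 0.12, adjusted p = 6.64e-05), beside -1.37 in stressed WT.

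Others of the 12 departed from watered WT in stressed IPT as well. BMY3, a beta-amylase gene of starch breakdown, was lower in stressed IPT (log2 -1.03) and higher in stressed WT (1.60), and so was LOC543605 (-1.22 and 1.34). Its other probe sets were at -0.85 (passing) and -0.70 (not passing) in stressed IPT, and at -0.27 and -0.19 in stressed WT, where neither passed, so the rise in stressed WT rests on 1 of 3 BMY3 probe sets. The BMY3 call at -1.03 ended without watered WT replicate 1 or 2 or without stressed IPT replicate 1, 2 or 3 (-0.67 to -1.11, adjusted p 0.0502 to 0.151). VPE5, a vacuolar processing enzyme, was lower in both, at -1.56 in stressed IPT and -1.45 in stressed WT. This too rests on 1 of 3 probe sets. The others, of which 1 was brighter, were at 0.33 and -0.14 in stressed WT and did not pass. MDHAR, monodehydroascorbate reductase of the ascorbate cycle, was at -0.70 in stressed IPT (adjusted p = 0.0471) and -1.25 in stressed WT. That MDHAR call held in 3 of the 12 fits that left out 1 array; it ended without any 1 array of watered WT, watered IPT or stressed IPT (-0.66 to -0.78, adjusted p 0.0549 to 0.123), and the value was 0.06 with the poly-A covariate. FRK2 and XTH16, described next, completed the 12.

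**Figure D1:**
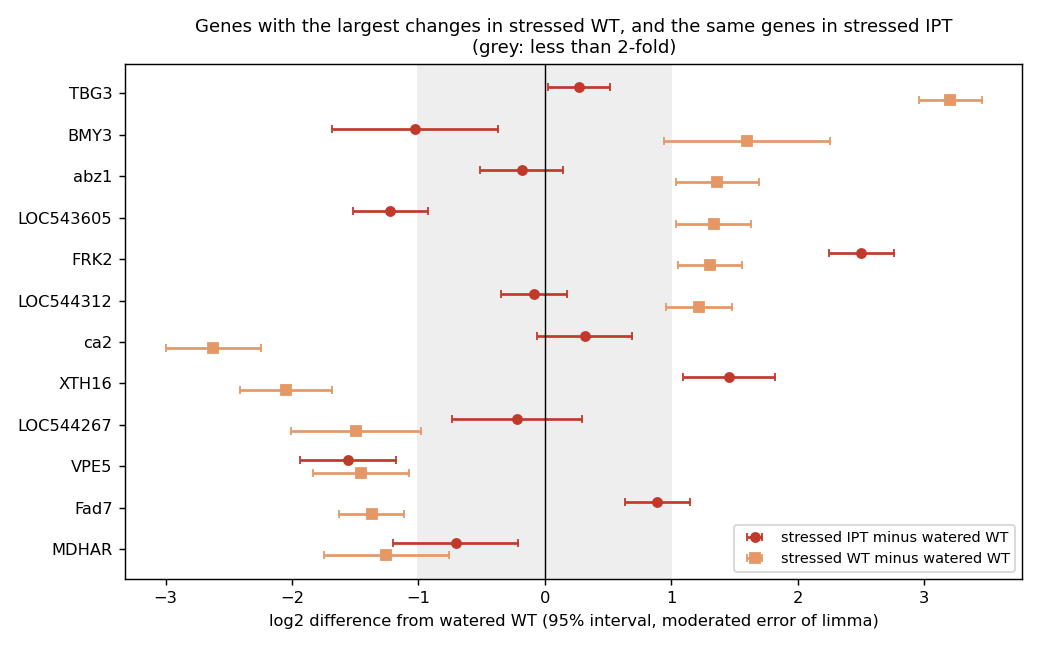
The 12 named genes with the largest changes in stressed WT leaves, as log2 differences from watered WT with 95% intervals, circles for stressed IPT and squares for stressed WT (3 arrays per group, grey band less than 2-fold). TBG3, abz1, LOC544312, ca2 and LOC544267 lie within the grey band in stressed IPT, and VPE5 lies at about the same place in both. BMY3, LOC543605, XTH16 and Fad7 lie on opposite sides of 0. For VPE5, BMY3 and XTH16 this holds in 1 of 3 probe sets at this size.

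Of the genes that rose, GA20OX1 had the largest difference among named ones. It encodes gibberellin 20-oxidase, which makes precursors of active gibberellins, and stood at 6.40, 6.24 and 6.21 in stressed IPT, against 1.95, 2.65 and 3.07 in watered WT. The difference was 13.3-fold (log2 3.73, SE 0.29, limma adjusted p = 1.36e-07). The watered WT values lie below the array medians, so how far background enters this fold is unknown without detection calls. Watered IPT had 6.00, 5.70 and 5.67 and stressed WT 3.77, 2.36 and 2.81, so both IPT groups stood above both WT groups.

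VDE, violaxanthin de-epoxidase of the photoprotective xanthophyll cycle, was next. It stood at 8.77, 8.76 and 8.76 in stressed IPT, against 5.95, 6.29 and 6.45 in watered WT, a 5.80-fold difference (log2 2.54, SE 0.17, adjusted p = 2.13e-08), and its other probe set was also higher (1.20). FRK2, a fructokinase that feeds fructose from sucrose into metabolism, stood at 7.85, 8.08 and 7.89 in stressed IPT, against 5.41, 5.40 and 5.50 in watered WT. That difference was 5.67-fold (log2 2.50, SE 0.12, adjusted p = 5.54e-10). For FRK2, watered IPT (8.15, 8.10 and 8.04) lay above stressed IPT's mean and stressed WT (6.80, 6.90 and 6.53) lay between the IPT groups and watered WT.

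Smaller rises took in growth, wall and protease genes. TUB, a tubulin of the cytoskeleton, had 9.64, 9.67 and 9.63 in stressed IPT, against 8.0, 8.14 and 8.20 in watered WT (2.90-fold, log2 1.54). GluB, a beta-1,3-glucanase of defence, had 4.13, 4.44 and 4.53 in stressed IPT, against 3.04, 2.64 and 2.84 in watered WT (2.89-fold, log2 1.53). These watered WT values of GluB lie below the array medians, so how far background enters is unknown. SBT1, a subtilisin-like protease, had 5.33, 5.16 and 5.41 in stressed IPT, against 3.84, 3.72 and 3.88 in watered WT (2.81-fold, log2 1.49). None of these groups of arrays overlapped, beside 33.9% of all probe sets without overlap. XTH16, which cuts and rejoins xyloglucan chains of the wall, was 2.75-fold higher (log2 1.46), with its other probe sets at 1.19 and 0.95, all of which passed. In stressed WT these XTH16 probe sets were at -2.05, -0.02 (not passing, the brightest) and -0.46 in the same order, so the large fall there rests on 1 of 3. HPL, a hydroperoxide lyase that makes leaf aldehydes, was 2.70-fold higher (log2 1.43), and PMEU1, a pectin methylesterase, 2.53-fold (log2 1.34). LOC543561 (1.65), LOC543709 (1.44) and LOC543937 (1.37) complete the 12 largest.

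The largest fall among named genes was that of SPM1, at 7.35, 7.38 and 7.32 in stressed IPT, against 10.35, 10.18 and 10.13 in watered WT. It was 7.30-fold lower (log2 -2.87, SE 0.12, adjusted p = 8.77e-11). TAS14, a dehydrin that accumulates in tomato under abscisic acid and drought, stood at 5.34, 5.49 and 5.64 in stressed IPT, against 7.97, 8.01 and 7.78 in watered WT. TAS14 was 5.38-fold lower (log2 -2.43, SE 0.15, adjusted p = 7.12e-09), while the same gene was higher in stressed WT than in watered WT (0.73). A stressed transgenic leaf thus held less of this dehydrin transcript than an unstressed WT leaf.

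CrtR-b1, a beta-carotene hydroxylase that makes zeaxanthin, stood at 6.32, 6.31 and 6.24 in stressed IPT, against 8.39, 8.40 and 8.29 in watered WT, 4.20-fold lower (log2 -2.07, SE 0.13). FDH, formate dehydrogenase, stood at 5.61, 5.72 and 5.75 in stressed IPT, against 7.73, 7.77 and 7.72 in watered WT, 4.12-fold lower (log2 -2.04, SE 0.16). ME1, a malic enzyme that turns malate into pyruvate, stood at 8.60, 8.52 and 8.51 in stressed IPT, against 10.40, 10.36 and 10.34 in watered WT, 3.54-fold lower (log2 -1.82, SE 0.10). All of these gaps were several times the spread within either group. The lipid transfer protein genes LE16 (-1.84) and TSW12 (-1.29) and the small heat-shock gene HSP17-6 (-1.83) were lower too. VPE5 had 4.25, 4.21 and 4.46 in stressed IPT, against 5.75, 5.99 and 5.85 in watered WT (-1.56), but its other probe sets were at 0.15 and -0.07 and did not pass. CIP2b (-1.54), CIP1 (-1.45, with its other probe set at -0.28 not passing) and a probe set of adc1, arginine decarboxylase of polyamine synthesis (-1.45), complete the 12 largest falls.

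**Figure D2:**
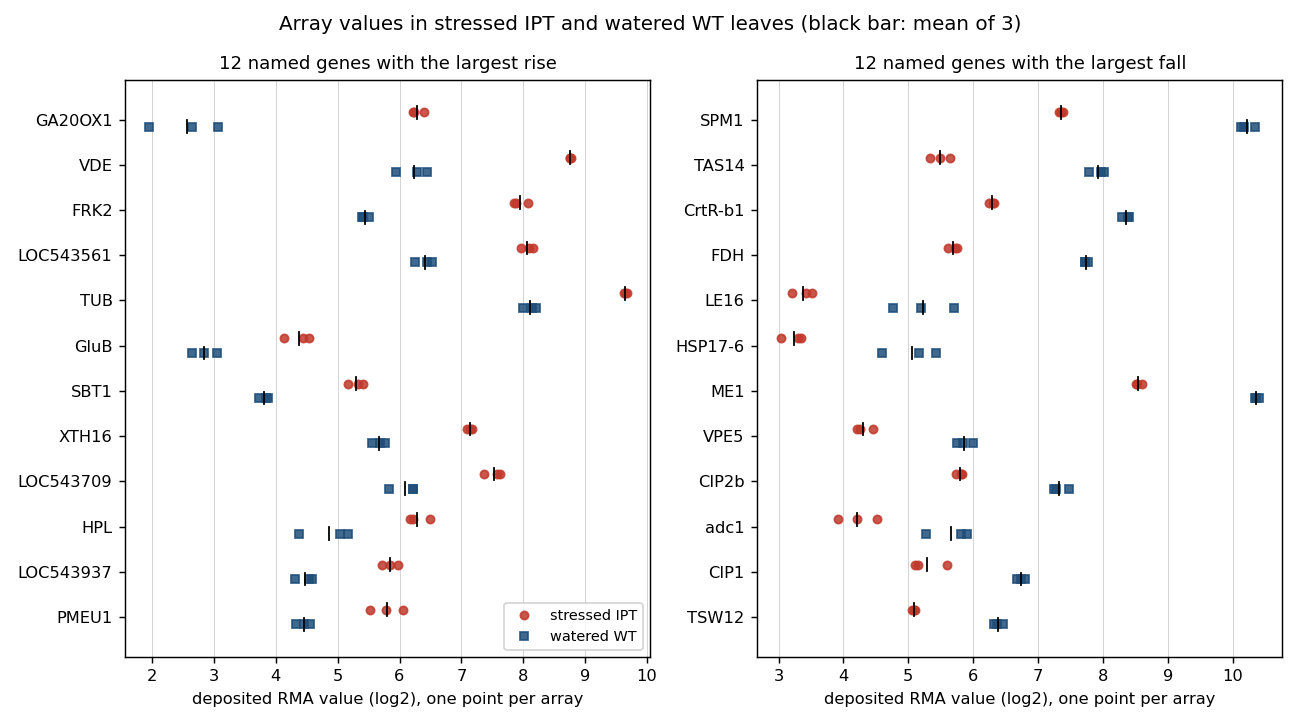
Deposited RMA values (log2, horizontal axis) of the 12 named genes with the largest rise (left) and the 12 with the largest fall (right), one point per array, circles for stressed IPT above squares for watered WT, black bars for means of 3. The points of both groups do not overlap for any of the 24 genes, which were named because they passed with a large difference.

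The difference of the stress effects (in IPT minus in WT) passed for 192 of 10101 probe sets (1.9%), among them FRK2, GluB and 1 of 3 XTH16 probe sets among the 24 named genes; the other XTH16 ones were at 0.27 (adjusted p = 0.576) and 0.06 (adjusted p = 0.93). For 23 of these 24 genes the genotype part passed and was the larger part, and for 12 the water part passed. The exception was VPE5, whose genotype part was -0.24 (adjusted p = 0.201) and whose water part was -1.31 (adjusted p = 5.75e-06). The other VPE5 probe sets had water parts of 0.21 and 0.00, which did not pass. In TAS14 the parts were opposed, at -2.87 for genotype and 0.45 for water, and so they were in ME1 (-2.19 and 0.37) and XTH16 (2.86 and -1.40). FRK2 had 1.93 for genotype and 0.58 for water, and PMEU1 0.73 and 0.61. Within IPT alone the stress effect was -0.16 for FRK2, 0.16 for TAS14, 0.10 for ME1 and 0.58 for PMEU1, none passing. For the XTH16 probe set at 2.86 it was -0.76 and passed. The water part of these genes thus also holds their stress effect in WT. The parts add up to the difference by which the genes were named, so these counts describe the 24 and no more.

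**Figure D3:**
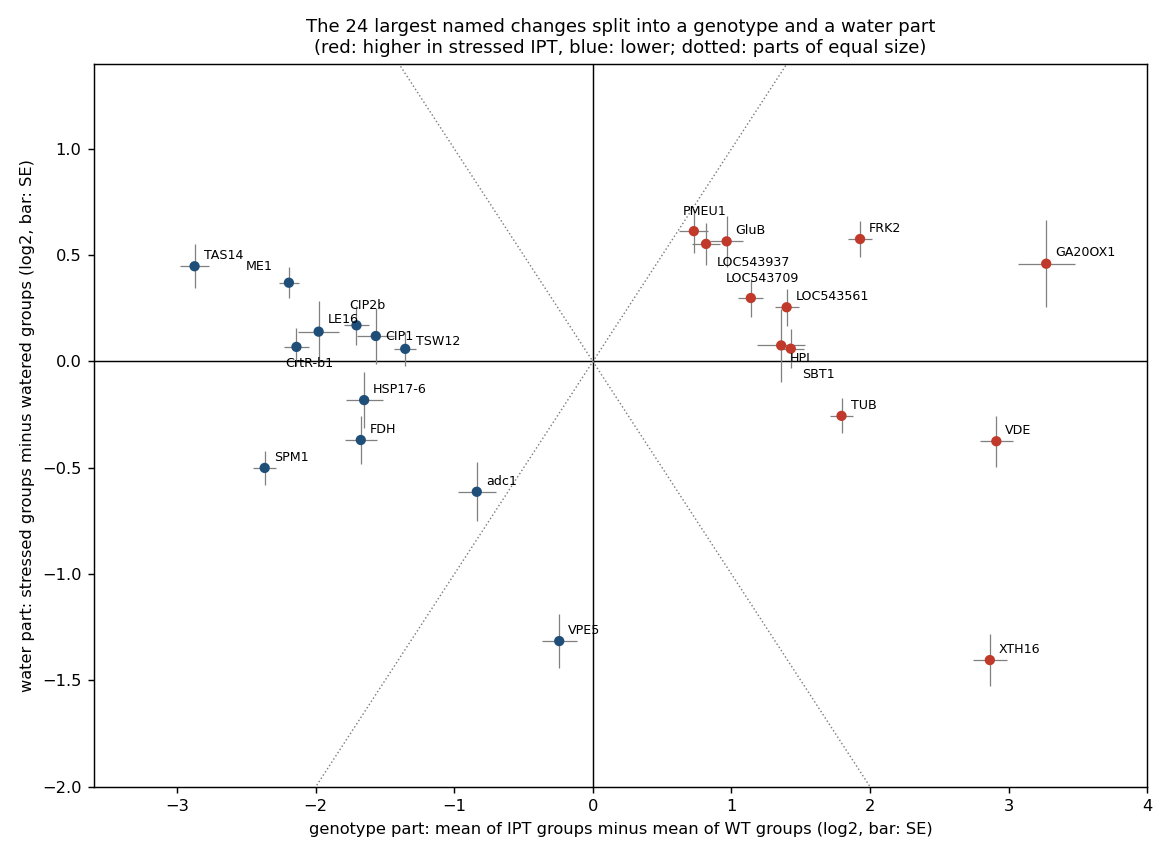
The genotype part (horizontal axis, IPT minus WT, log2) and the water part (vertical axis, stressed minus watered, log2) of the 24 largest named differences, with standard errors as bars, red for genes higher and blue for genes lower in stressed IPT than in watered WT. Most points lie far out on the genotype axis and within 0.7 of 0 on the water axis, except VPE5 and XTH16.

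Four-group values make these patterns visible for single genes. TBG3 and abz1 had 1 group that stood apart, stressed WT. GA20OX1, VDE, TAS14, CrtR-b1 and ME1 had both IPT groups on one side and both WT groups on the other. The VPE5 probe set that fell had both stressed groups below both watered groups, which its other probe sets did not show.

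**Figure D4:**
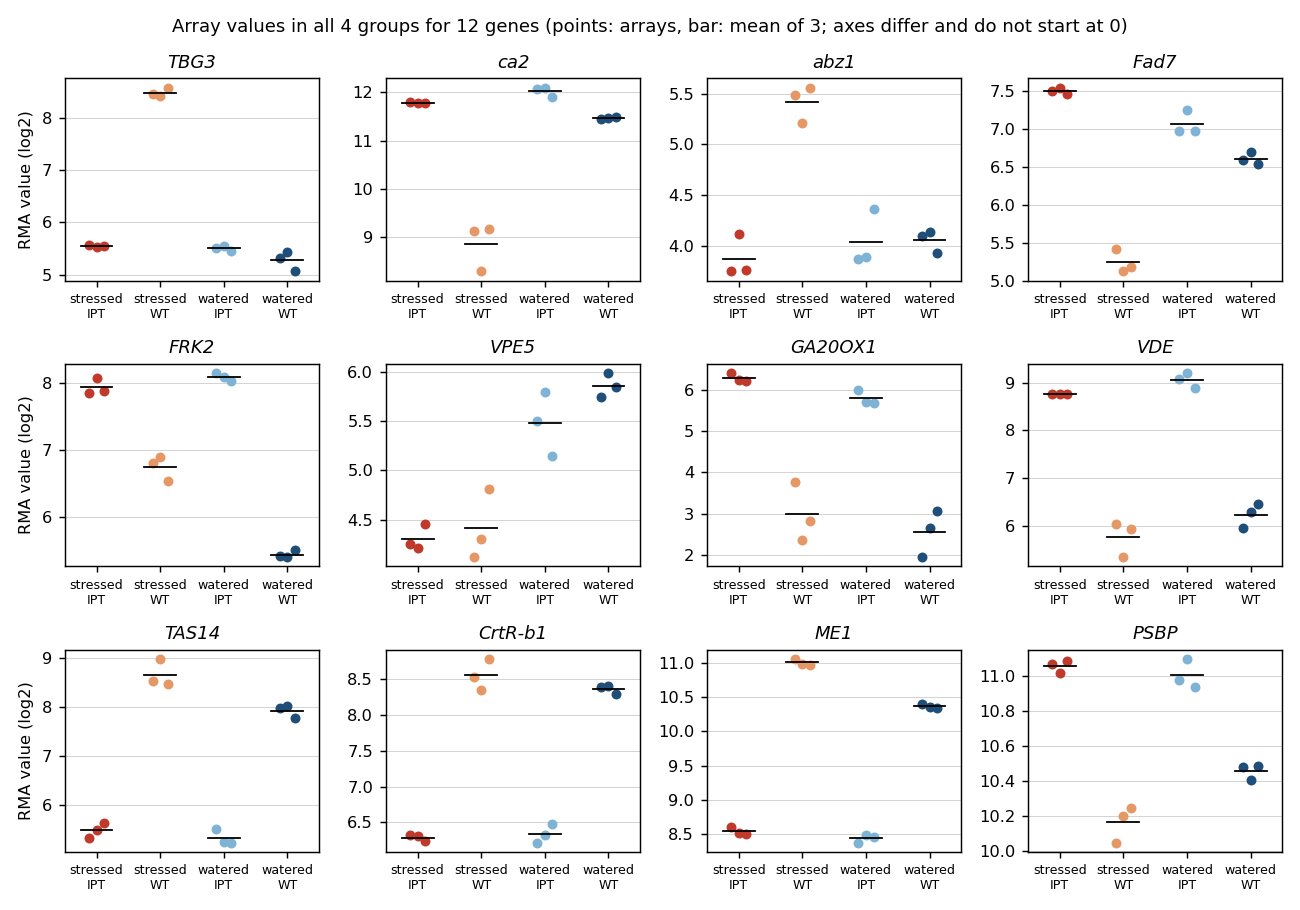
Deposited RMA values (log2, vertical axes differ) of 12 genes in stressed IPT, stressed WT, watered IPT and watered WT, one point per array with the mean of 3 as a bar. TBG3, ca2 and abz1 show stressed WT apart from the other groups, and Fad7 is lowest in stressed WT. GA20OX1, VDE, TAS14, CrtR-b1, ME1 and PSBP show a split by genotype. VPE5 shows a split by water supply in the probe set drawn, but not in its others.

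Light capture and electron transport came first among the gene groups, each gene counted by its brightest probe set. All group counts below stand beside 9.51% higher and 8.42% lower over all probe sets. Counts near these shares do not set a group apart. None of 3 light-harvesting genes passed in stressed IPT (median log2 0.05), with the antenna protein gene CAB4 at 0.02 (interval -0.20 to 0.23), beside -0.63 in stressed WT, where it passed. Of 5 genes of photosystem II and plastocyanin, 4 were higher, 0 lower and 1 did not pass (median 0.45). No gene of photosystem I was among them, though the list was meant to take these in. PSBP, an extrinsic subunit of the water-splitting complex, stood at 11.07, 11.02 and 11.09 in stressed IPT, against 10.48, 10.41 and 10.49 in watered WT, with no overlap. It was 1.51-fold higher (log2 0.60, SE 0.11, adjusted p = 0.000867). Its partners PsbQ (0.47) and PSBO (0.45) and the plastocyanin gene PETE (0.43) were higher, and PSBR was at -0.02. None of these 5 genes passed in stressed WT, where the median was -0.18. With the poly-A covariate PSBP alone passed (0.61), with PSBO at 0.47, PsbQ at 0.42 and PETE at 0.38. The PETE call also ended without watered WT replicate 3 or without stressed IPT replicate 1, 2 or 3 (adjusted p 0.0535 to 0.14).

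Carotenoid genes went both ways. Of 13, 3 were higher, 4 lower and 6 did not pass (median log2 -0.13). Higher beside VDE were CRTL-E-1, a lycopene epsilon-cyclase of the lutein branch (0.89), and PTOX, the plastid terminal oxidase that takes electrons in carotene desaturation (0.88). Lower beside CrtR-b1 were CCD1A, a carotenoid cleavage dioxygenase (-0.76), and the phytoene synthases Psy1 (-0.47) and PSY2 (-0.56), of the first step of the pathway. CCD1A stood at 9.18, 9.36 and 9.20 in stressed IPT, against 9.97, 9.95 and 10.10 in watered WT, without overlap. The Psy1 call ended without stressed IPT replicate 3 (-0.40, adjusted p = 0.0529), and its other probe sets were at 0.02 and -0.07. PSY2 overlapped between the groups, and its call ended without watered WT replicate 1 or 3 or stressed IPT replicate 2 or 3 (adjusted p 0.0862 to 0.173). ZEP, zeaxanthin epoxidase (-0.23), and NCED1, of the committed step of abscisic acid synthesis (-0.29), did not pass. PTOX (0.71) and Psy1 (-0.38) missed the threshold when the poly-A covariate was fitted.

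Protective genes stood below the unstressed WT level or did not pass. Among 6 genes of dehydration protection 4 were lower and 0 higher (median log2 -1.0). TSW12 stood at 5.11, 5.08 and 5.05 in stressed IPT, against 6.32, 6.46 and 6.36 in watered WT, and LE16 at 3.43, 3.52 and 3.20 in stressed IPT, against 5.70, 4.76 and 5.20 in watered WT. Neither gene overlapped. The lipid transfer protein gene ltpg1 was lower by a smaller step (-0.70), which did not pass with the poly-A covariate (-0.73, adjusted p = 0.0994). ER5, a LEA-like gene named for its response to ethylene in tomato, was at -0.01 in stressed IPT (beside 0.54 in stressed WT, where it passed), and LEA14 at 0.12. In stressed WT 2 of the 6 genes were higher and 0 lower.

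Counted by their brightest probe sets, the heat-shock and antioxidant groups had no gene that was higher in stressed IPT. Of 5 heat-shock genes 3 were lower and 2 did not pass (median log2 -0.49). HSP17-6 stood at 3.30, 3.35 and 3.04 in stressed IPT, against 5.42, 4.60 and 5.17 in watered WT, with the stressed IPT values below the array medians. The chaperone genes Hsp90-1 (-0.50) and HSC80 (-0.49) were lower without overlap, the second not passing with the poly-A covariate (-0.54, adjusted p = 0.0542). HSP21, a plastid small heat-shock protein, was at -0.38 and did not pass, beside 0.95 in stressed WT, where it did. Of 13 antioxidant genes 5 were lower and 8 did not pass (median -0.18). The catalase gene CAT2, whose enzyme removes hydrogen peroxide, stood at 11.85, 11.81 and 11.75 in stressed IPT, against 12.77, 12.83 and 12.82 in watered WT. It was 2.01-fold lower (log2 -1.0, SE 0.11, adjusted p = 4.19e-06), beside -0.01 in stressed WT. A dimmer probe set of GPXle-2, a glutathione peroxidase, was higher (0.57, adjusted p = 0.0103; 0.0563 without watered WT replicate 3 and 0.121 with the poly-A covariate), while its brightest was at 0.25 and did not pass. DHAR1, dehydroascorbate reductase (-0.68), SODCC.1, a cytosolic superoxide dismutase (-0.59), and APX2, ascorbate peroxidase (-0.46), were lower with MDHAR. The other APX2 probe set was at -0.2 and did not pass. Fitting the poly-A covariate left 3 of the 5, and APX2 (-0.38) and MDHAR did not.

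Sugar and starch genes had members on both sides. Of 16, 2 were higher and 3 lower (median log2 -0.06), beside 9.51% higher and 8.42% lower over all probe sets. The 3 lower were SPS, sus3 and BMY3, the last with the losses of its call given above. AGPL3, a large subunit of ADP-glucose pyrophosphorylase, which controls starch synthesis, stood at 6.37, 6.40 and 6.41 in stressed IPT, against 5.88, 5.27 and 5.32 in watered WT (0.90, SE 0.15), and was at -0.52 in stressed WT. SPS, sucrose-phosphate synthase of sucrose synthesis, stood at 5.03, 4.60 and 4.33 in stressed IPT, against 6.36, 5.75 and 5.43 in watered WT (-1.19, SE 0.21). The sucrose synthase gene sus3 was lower (-0.86), beside 0.49 in stressed WT. The groups of arrays did not overlap for any of these genes, all of which had passed, beside 33.9% of all probe sets without overlap. Other fructokinases, FRK1 (-0.02), FRK3 (-0.15) and FRK4 (-0.06), did not pass where FRK2 did. Of 4 genes of malic enzyme, malate dehydrogenase and formate dehydrogenase, all 4 were lower (median -1.36): FDH, ME1, ME2 (-0.90) and mdh (-0.38). The mdh call ended without watered WT replicate 2 or 3 or stressed IPT replicate 2 or 3 (adjusted p 0.0543 to 0.0981) and with the poly-A covariate (-0.41, adjusted p = 0.113), which left 3 of the 4.

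Among cell wall enzymes more genes were higher than lower, most by less than 2-fold. Of 42 genes 12 were higher, 1 lower and 29 did not pass, and 32 had a value above 0 (median log2 0.22, against 0.025 over all probe sets). The largest beside PMEU1 and XTH16, whose brightest probe set was at 1.19, were the beta-galactosidase TBG7 (0.75), the expansin EXP2 (0.64) and the endoglucanase CEL8 (0.59). TBG7 stood at 4.30, 4.33 and 4.29 in stressed IPT, against 3.59, 3.36 and 3.71 in watered WT. CEL8 stood at 4.37, 4.36 and 4.33 in stressed IPT, against 3.80, 3.70 and 3.79 in watered WT, and was at -0.57 in stressed WT. Both genes kept the groups apart, but neither passed with the poly-A covariate (0.54 and 0.46, limma adjusted p = 0.0894 and 0.0898). With it EXP2 passed (0.78), and so did the endoglucanase cel5 (0.63), which was at 0.38 and did not pass without it. The beta-galactosidase TBG6 was the 1 lower gene (-0.74), a call that ended without watered WT replicate 1 or 2 or stressed IPT replicate 1 (adjusted p 0.0588 to 0.0652). The count of higher genes was 7 without watered WT replicate 1 or without stressed IPT replicate 2, 8 with each array centred on its median, and 4 with the poly-A covariate. In stressed WT 7 of the 42 were higher and 2 lower, TBG3 and TBG4 (0.64) among the higher, and in stressed IPT TBG4 was at 0.06.

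Hormone genes other than GA20OX1 that passed differed by less than 2-fold. Of 32 ethylene genes 6 were higher, 0 lower and 26 did not pass (median log2 0.09). In either direction 17.9% of all probe sets and 20.9% of those with a symbol passed, so the ethylene count is near these shares. The ACC oxidase genes ACO6 (0.85) and ACO4 (0.83), of the last step of ethylene synthesis, led them. ACO4 stood at 4.86, 5.11 and 5.08 in stressed IPT, against 3.98, 4.41 and 4.18 in watered WT, and ACO6 at 6.02, 5.96 and 5.89 in stressed IPT, against 4.80, 5.36 and 5.17 in watered WT. Neither overlapped, but further ACO6 probe sets were at 0.40 and 0.02 and missed the threshold. The receptor gene ETR5 (0.74) was higher too, except without watered WT replicate 1 or stressed IPT replicate 2 (0.60 and 0.61, adjusted p 0.0706 to 0.0718), and was at 0.72 in stressed WT. The count of higher ethylene genes was 3 without watered WT replicate 1 and 1, ACO6, with the poly-A covariate.

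Of 10 gibberellin and auxin genes 2 were higher, 1 lower and 7 did not pass (median log2 -0.08). Beside GA20OX1 these were GA3ox1, whose enzyme makes active gibberellin (0.52), and IAA3, a repressor of auxin response (-0.45). GA3ox1 was at 0.63 in stressed WT and IAA3 at -0.46. Calls of GA3ox1 ended without watered WT replicate 2 or 3 or stressed IPT replicate 1 or 3 (adjusted p 0.0516 to 0.0736), and that of IAA3 without watered WT replicate 1 or stressed IPT replicate 3 (0.0851 to 0.087). Neither passed with the poly-A covariate. GAI, the DELLA repressor of gibberellin signalling, was at -0.02. Of 13 stress-related transcription factor genes 0 were higher, 1 lower and 12 did not pass (median 0.01), beside 8.42% lower over all probe sets. That gene, JERF1, an ethylene-response factor, was at -0.56 in stressed IPT and 0.74 in stressed WT. The JERF1 call ended without watered WT replicate 3, without stressed IPT replicate 1 or 2 (adjusted p 0.0512 to 0.079) and with the poly-A covariate (-0.68, adjusted p = 0.0727). The abscisic acid-response factor AREB1 (-0.32) and the 3 DREB genes, at 0.08 to 0.14, did not pass.

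Lipid and defence genes had members that were higher and none lower. Of 12 genes of fatty acid desaturation and oxylipin synthesis 5 were higher and 7 did not pass (median log2 0.03). HPL stood at 6.49, 6.17 and 6.21 in stressed IPT, against 5.04, 5.16 and 4.37 in watered WT. Beside HPL and Fad7 these were the lipoxygenase loxC (0.72), the allene oxide synthase AOS (0.62) and the reductase OPR1 (0.46). With the poly-A covariate HPL and Fad7 passed and loxC (0.32), AOS (0.44) and OPR1 (0.51) did not. OPR1 also lost its call in 6 of the 12 fits without 1 array: each of the stressed IPT arrays, watered WT replicate 1 or 2, and watered IPT replicate 1 (adjusted p 0.0567 to 0.139). The allene oxide cyclase AOC was at -0.22, beside -0.74 in stressed WT, where it passed. Of 10 defence genes 3 were higher and 7 did not pass (median 0.13): GluB, the chitinase CHI9 (0.61) and the thaumatin-like PR-5 (0.70). PR-5 stood at 3.09, 3.41 and 4.30 in stressed IPT, against 2.88, 2.93 and 2.88 in watered WT, so 1 stressed IPT array was far above the others. Without that array, stressed IPT replicate 3, PR-5 was at 0.35, and its call also ended without any 1 watered WT array (adjusted p 0.0716 to 0.137 over these fits). The poly-A covariate left 2 of the 3, without PR-5 (0.94, adjusted p = 0.0684).

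Nitrogen and protein turnover genes were few. Of 5 nitrogen and polyamine genes 1 was higher, 2 lower and 2 did not pass (median log2 0.24). GS2, the plastid glutamine synthetase that takes up ammonium, stood at 12.37, 12.27 and 12.26 in stressed IPT, against 11.63, 11.64 and 11.71 in watered WT (1.56-fold, log2 0.64, SE 0.11), beside 0.10 in stressed WT. ADC, an arginine decarboxylase, was lower (-0.73). The brightest adc1 probe set was lower as well (-0.50), a call that ended without any 1 array of stressed IPT or watered WT (adjusted p 0.0512 to 0.0875), while the one at -1.45 passed in every such fit. The remaining adc1 probe sets, at -0.35 and -0.23, did not pass. Of 12 protease and senescence genes 3 were higher, 0 lower and 9 did not pass, all 12 with a value above 0 (median 0.30). VPE5 counts there by its brightest probe set (0.15); over all 14 probe sets of the list 1 was lower, that of VPE5 at -1.56, and 12 were above 0. Beside SBT1 these were the phospholipase D gene PLDa1 (1.04) and the subtilase sbt4a (0.54). PLDa1 stood at 4.63, 4.55 and 4.49 in stressed IPT, against 3.36, 3.39 and 3.80 in watered WT, without overlap. The sbt4a value was 0.39 with the poly-A covariate and did not pass. PLDb1, at 0.48 and not passing without that covariate, passed with it (0.83, limma adjusted p = 0.0347), so the count stayed at 3 higher. Of 2 aquaporin genes 1 was higher, LePIP1 (0.56), and pip1 was at -0.14. The LePIP1 value was 0.10 with the poly-A covariate, and it did not pass with centred arrays (0.52, adjusted p = 0.0624) or in 7 of the 12 fits without 1 array (adjusted p 0.0518 to 0.159).

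**Figure D5:**
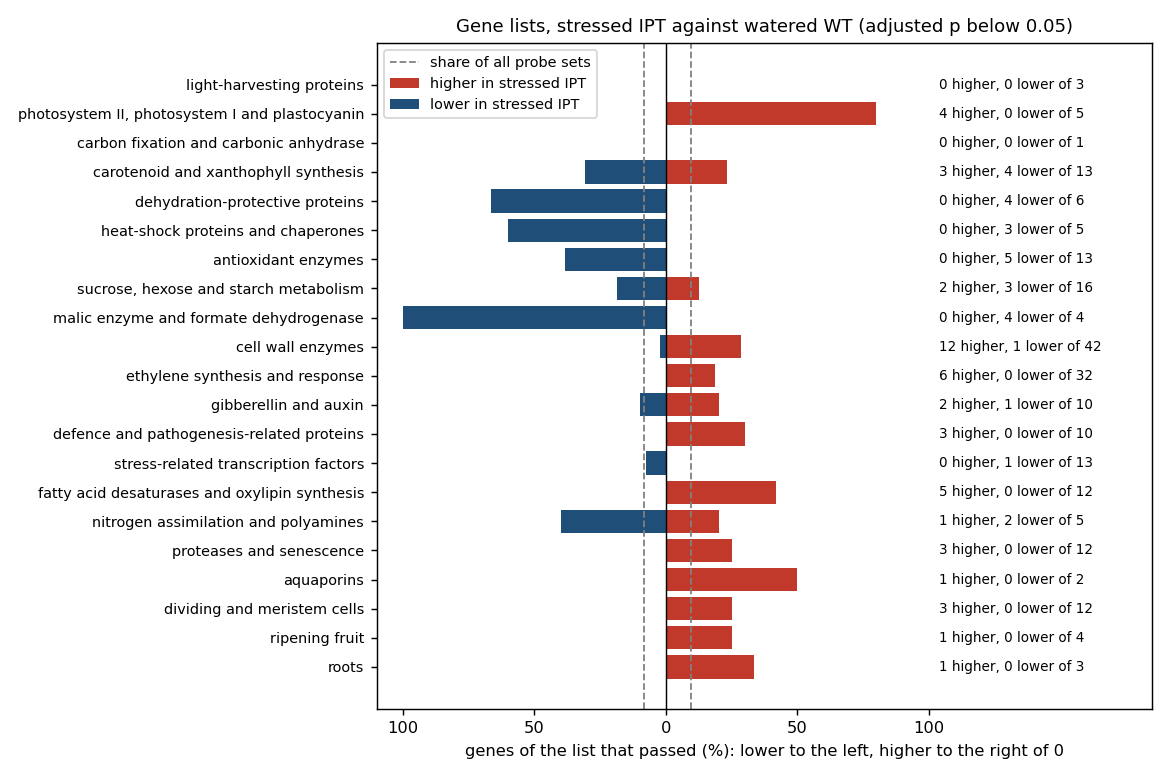
Share of genes (%) of each list that was higher (red, right) or lower (blue, left) in stressed IPT than in watered WT at a limma adjusted p below 0.05, with the counts at the right and dashed lines at the shares over all probe sets (9.51% higher, 8.42% lower). Malic enzyme, dehydration-protective and heat-shock lists lie on the lower side and photosystem genes on the higher side, and short lists move in large steps.

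Markers of other cells and organs were read on the same arrays. Of 12 genes of dividing and meristem cells 3 were higher, 0 lower and 9 did not pass, 10 with a value above 0 (median log2 0.22). CYCD3, a D-type cyclin whose gene responds to cytokinin in Arabidopsis, stood at 5.48, 5.29 and 5.24 in stressed IPT, against 4.37, 4.78 and 3.91 in watered WT (1.97-fold, log2 0.98, SE 0.17, adjusted p = 0.000652). The cyclin-dependent kinase genes cdc2A-2 (0.57) and CDKA1 (0.50) were higher, neither with the poly-A covariate (0.51 and 0.32). The CDKA1 call ended without watered WT replicate 1 or 2, watered IPT replicate 1 or stressed IPT replicate 1 or 3 (adjusted p 0.0538 to 0.156). The markers PCNA (0.05), CycB2 (-0.01) and CDKB1 (-0.21), genes of cells in division, did not pass. Of 4 fruit genes 1 was higher, RIN (0.50), and of 3 root genes 1, PT1 (0.52), both between 1.92 and 3.89 on the arrays of the groups compared. The fruit genes E8, PG2 and 2A11 did not pass. The RIN call ended without watered WT replicate 2 or stressed IPT replicate 1 (adjusted p 0.0563 to 0.0717) and with the poly-A covariate (0.32). The PT1 call ended without watered WT replicate 2 or 3, without stressed IPT replicate 1 or 3 (0.107 to 0.154), with the poly-A covariate (0.36) and with centred arrays (adjusted p = 0.0518). Whether a change in the share of cell types had a part in any result was not tested, and fewer cells of a type and less RNA per cell cannot be told apart in whole leaves.

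The largest differences of all belonged to probe sets without a gene name here. The largest rise of all stood at 7.20, 7.18 and 7.19 in stressed IPT, against 1.88, 2.79 and 2.65 in watered WT (26.9-fold, log2 4.75, SE 0.20), with watered IPT at 6.53 to 6.89 and stressed WT at 1.76 to 2.26. The next largest rise stood at 6.99, 6.95 and 7.18 in stressed IPT, against 3.75, 3.17 and 2.39 in watered WT (15.3-fold, log2 3.94, SE 0.23). Their watered WT values lie near or below the array medians. The probe set with the largest fall stood at 3.54, 2.85 and 2.86 in stressed IPT, against 7.71, 7.88 and 7.54 in watered WT (24.7-fold lower, log2 -4.63, SE 0.31), with a water part of -3.11 and a genotype part of -1.52. That with the next largest fall stood at 7.44, 7.62 and 7.62 in stressed IPT, against 11.64, 11.69 and 11.58 in watered WT (16.9-fold lower, log2 -4.08, SE 0.21), with a genotype part of -3.45 and a water part of -0.63. In the first, the second and the last of these the genotype part was the larger, and in the other one the water part.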

How the data were processed

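Per the labels' protocols, Trizol was used to extract leaf RNA, and cRNA with biotin, made from 6 ug of it, was put on an Affymetrix array of tomato probes. The submitters' processing notes name RMA, and the authors deposited log2 values; the sources used here give no version or options of it. Of 10209 probe sets, 108 controls were left out and the others tested without a filter on dim ones. For arrays, their number limits the precision; no scanner file was used here.

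A linear model with 1 mean for each of the 4 groups was fitted to all 12 arrays, without a replicate block, with limma 3.58.1 (lmFit and eBayes, R 4.3.3; 8 residual and 7.99 prior degrees of freedom). Tests are two-sided, with Benjamini-Hochberg adjustment over the 10101 probe sets of each comparison, and errors are moderated standard errors. Intervals are at 95% and unadjusted. The labels call the replicates biological, with no word on plants pooled, so p-values measure the spread between these samples. The numbers of replicates do not pair the arrays: deviations of same-numbered stressed IPT and watered WT arrays correlated at 0.00, -0.02 and 0.00.

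Annotation gave 802 gene symbols, 83 of them with several probe sets; gene lists count each gene once, by its probe set of highest mean. Named genes were the 12 largest rises and 12 largest falls that passed, 1 per gene, the 6 largest rises and 6 largest falls in stressed WT, from every list the 2 members of lowest p, and 2 unnamed probe sets each way. Other list members that passed were added to the text with their values known. A list of cytokinin genes matched no symbol. Members, lists and rules were chosen with earlier results of these data known. Control probe sets were compared by exact permutation tests. As alternatives, arrays were centred on their medians, quantile-normalized, weighted by quality or left out in turn; brighter probe sets alone, the compared arrays alone, a variance trend with robust moderation, the replicate number as a block and the poly-A 3' minus 5' covariate were tried; and 99% intervals, a test against a 2-fold change and every probe set of a gene were used. The steps were tested on simulated data. No sequences are printed, since none were in the files used here.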

Additional observations from a re-analysis of the deposited data

Results flagged for a closer look

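For 10 of the named probe sets the stress effect differed between the genotypes by the test of the difference itself (stress effect in IPT minus stress effect in WT, log2, limma adjusted p over all probe sets). Over all probe sets this difference passed for 192 of 10101 (1.9%). Above 0 were ca2 at 2.38 (adjusted p = 4.16e-05), Fad7 at 1.80 (1.77e-05), XTH16 at 1.29 (0.00686) and GluB at 1.08 (0.024). For ca2 the stress effect was -0.24 in IPT and -2.62 in WT, and for Fad7 0.43 in IPT and -1.37 in WT. For XTH16 it was -0.76 in IPT and -2.05 in WT, and for GluB 1.10 in IPT and 0.03 in WT. All WT arrays of GluB, stressed and watered, lie below the array medians, so its stress effect in WT may be understated. Below 0 were LOC544312 at -1.14 (adjusted p = 0.00119), LOC543605 at -1.23 (0.00195), FRK2 at -1.46 (0.000112), abz1 at -1.53 (0.000699), the unnamed probe set with the next largest rise at -1.70 (0.00727) and TBG3 at -3.17 (1.92e-08). For TBG3 the stress effect was 0.04 in IPT and 3.21 in WT, and for FRK2 -0.16 in IPT and 1.31 in WT. For XTH16 this holds for 1 of 3 probe sets: the others had 0.25 in IPT and -0.02 in WT (difference 0.27, adjusted p = 0.576), and -0.40 in IPT and -0.46 in WT (0.06, adjusted p = 0.93). For ca2 a second bright probe set also differed (2.23, adjusted p = 0.00195), and the dim ones did not pass (0.10 and 0.38). These genes were named partly for a large stress effect in WT, which is 1 side of the difference tested.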

How the results depend on the processing

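Of 63 named probe sets 52 passed; 45 did so whichever array was dropped, and 43 when the 3' minus 5' gap of the poly-A controls was a covariate. That covariate differs between the groups compared, and with it 891 probe sets passed between stressed IPT and watered WT (510 higher and 381 lower), 37 for water, 59 in stressed WT and 120 for the difference of the stress effects; MDHAR turned to 0.0557. The difference of the stress effects gave 300 among brighter probe sets and 332 with an intensity trend and robust moderation, stressed WT gave 694 with only the compared arrays, and 4338 brighter probe sets, of about a halved number tested, were held within 2-fold. A test against a 2-fold change passed 35 higher and 53 lower.

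Leaving out 1 array gave 1383 to 1967 probe sets between stressed IPT and watered WT (732 to 1023 higher, 624 to 944 lower; at least 2-fold, 139 to 153 higher and 175 to 193 lower) and 9120 to 9349 held within 2-fold. It gave 1935 to 2233 for genotype, 769 to 1174 for water, 748 to 1142 in stressed WT and 134 to 221 for the difference of the stress effects. With the replicate number as a block 1694 probe sets passed (896 higher and 798 lower), and among named ones only the call of PT1 was lost (adjusted p = 0.0522). Centring each array gave 795 higher and 978 lower, at a median log2 of -0.016 in place of 0.025. The causes were not tested. Depth over background is unknown, so differences of probe sets near the array medians may be understated.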

Other observations

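Some gene groups were put together after their values were seen, and their counts are descriptions beside the shares over all probe sets (9.51% higher, 8.42% lower). Of 4 genes of chlorophyll and tetrapyrrole synthesis 2 were higher in stressed IPT than in watered WT and 2 did not pass (median log2 0.44). GSA-AT, the aminotransferase that makes the precursor of all tetrapyrroles, stood at 8.26, 8.29 and 8.10 in stressed IPT, against 6.96, 6.93 and 6.99 in watered WT (2.39-fold, log2 1.26, limma adjusted p = 8.17e-07). POR2, protochlorophyllide reductase of chlorophyll synthesis, was at 0.88. Neither passed in stressed WT (0.22 and 0.18). Of 6 genes of isoprenoid precursors 1 was higher, the farnesyl diphosphate synthase FPPS1 (1.09). Of 5 genes of the S-adenosylmethionine cycle SAHH, adenosylhomocysteinase, was higher (1.17) and SAM1, an S-adenosylmethionine synthetase, lower (-0.72). SAHH stood at 10.55, 10.55 and 10.57 in stressed IPT, against 9.43, 9.32 and 9.40 in watered WT, without overlap.

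Among 9 genes of photoreceptors and light signalling 1 was lower, the blue-light receptor gene CRY1A (-1.24), whose other probe set was at 0.25. CRY1A did not pass with the poly-A covariate (-0.92, limma adjusted p = 0.0521). PHYA, at -0.50 and not passing without that covariate, passed with it (-1.16, adjusted p = 0.00532). The thioredoxin gene TH1 was the 1 of 5 of its group that was lower (-0.94), with its other probe set at -0.17. Of 3 genes of the SNF1-related kinase complex SNF1 was lower (-0.55) and GAL83 did not pass (0.24), beside 0.97 for GAL83 in stressed WT. Of 10 genes of proline and gamma-aminobutyrate metabolism 3 were higher and 1 lower: the transaminases GABA-TP3 (0.74) and GABA-TP2 (0.58) and the proline transporter ProT3 (0.44), and PRO2 of proline synthesis (-0.93). PRO2 stood at 5.68, 5.78 and 5.26 in stressed IPT, against 6.56, 6.53 and 6.43 in watered WT, and was at -0.61 with the poly-A covariate (adjusted p = 0.0634). The ProT3 call ended without watered WT replicate 1 or stressed IPT replicate 2 or 3 (adjusted p 0.0595 to 0.0743).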
